A study of Triticum aestivum with 122 samples.

Results

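The 41 genes described here vary together across wheat floret libraries and include the 17 lowest-numbered gene entries of chromosome 1A. They were picked by their floret values. A reference level was computed in each of 61 floret libraries as the mean log2(normalized count + 1) of 13 chromosome 1A entries, TraesCS1A03G0000200.1 to TraesCS1A03G0002200.1. Entries with a normalized count of at least 10 in 3 or more libraries were then compared with it, and those with a Pearson correlation (r) above 0.8 across the florets were kept. Of 55577 entries, 40613 passed the filter on low values and 41 passed the correlation, among them all 13 reference entries and 28 others. Because the floret values chose these genes, floret levels and correlations are given as descriptions, and tests of differences between groups were run only in the rachis.

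The libraries were made from poly(A)-selected RNA of unemerged heads of the bread wheat (Triticum aestivum) cultivar Vida, which had been dissected into florets and rachis (the central axis of the head). Seeds germinated for 48 h with 1 µM 2,4-epibrassinolide (EBR), a brassinosteroid hormone, or, as the control, with 1 µM dimethyl sulfoxide (DMSO). The growth chambers were kept at 22 °C with 16 h of light per day. At booting, when the florets had reached the tetrad stage, pots from each seed treatment were moved to constant 29 °C. Heads collected just before the move are called 0 h, and later ones were taken 8, 16 or 24 h into the heat, so that each tissue has 16 groups: EBR or DMSO seed, 29 °C or 22 °C, and 4 times. All groups share the cultivar, the growth chamber conditions before the move and the tissue collection, and no group carries a transgene. At 0 h the 29 °C groups are heads of pots that were still at 22 °C. There were 4 libraries in 26 of the 32 groups, 3 in 5 groups and 2 in 1 group, which the labels call biological replicates. The labels also give each combination of seed, temperature and time a library number between 1 and 16.

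Bread wheat carries 3 related sets of chromosomes, A, B and D, and the number in a gene identifier increases along a chromosome from the tip of its short arm. Brassinosteroids are growth hormones that act through changes in transcription. The short arms of a few wheat chromosomes, among them 1A, 1B and 5D, carry nucleolus organizer regions, tandem arrays of ribosomal RNA genes from which ribosomes are built. Poly(A) selection enriches messenger RNA over ribosomal RNA.

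Total reads per library, recovered from the normalized counts, lay between 14457823 and 21776145 in florets (median 17442553) and between 10598979 and 18208842 in rachises (median 14736702). Tissue labels were checked on the entries outside the 41 genes, by placing each library on the axis between the mean floret and the mean rachis profile, where 1 unit is the distance between them. A floret and a rachis library with the same seed, temperature, time and replicate number were taken as 1 head, and this pairing was not tested. In all but 3 of the 59 heads with both tissues the library labelled floret lay at least 0.194 units to the floret side of its partner, with a median of 1.02. In the 3 heads its position minus that of its partner was −1.28 to −0.47. These were EBR 22 °C 16 h replicate 3, DMSO 29 °C 0 h replicate 1 and DMSO 22 °C 0 h replicate 1, and their libraries are named here by label. Values without these 3 heads are given beside the rachis tests, the comparison of tissues within heads and the floret differences at 0 h and at 22 °C and 16 h, and the other floret values include them. In whole tissue, fewer cells of a type and less RNA per cell cannot be told apart.

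The 41 genes lay on 8 of the 15 chromosomes covered by the entries analysed here. Chromosome 1A held 17 and chromosome 1B held 8. Chromosomes 4A and 5D held 4 each, 5A held 3, 3B and 4D held 2 each, and 2D held 1. None lay on 1D, 2A, 2B, 3A, 3D, 4B or 5B, and entries of chromosomes 6 and 7 were not analysed here. As a share of the entries that passed the filter, the 41 genes made up 0.718% on 1A, 0.321% on 1B, 0.165% on 5D and 0.158% on 4A. The genes contributed unequally to the summed floret level: chromosome 1A supplied 50.2% of it, 5D 26.8%, 5A 10.98%, 4A 4.64% and 1B 4.34%.

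The genes sat in 14 unbroken stretches of neighbouring entries. The longest was the first 17 entries of chromosome 1A, TraesCS1A03G0000200.1 to TraesCS1A03G0003200.1, which runs 4 entries past the reference. The next entry, TraesCS1A03G0004000.1, had an r of −0.45, and none of the following entries up to the 60th was a member. A stretch of 4 entries lay on 4A, TraesCS4A03G0645300.1 to TraesCS4A03G0646100.1. Stretches of 3 entries lay on 1B at TraesCS1B03G0225900.1 to TraesCS1B03G0227000.1 and at TraesCS1B03G0876500.1 to TraesCS1B03G0877600.1. Another stretch of 3, TraesCS5A03G1305100.1 to TraesCS5A03G1305300.1, held the highest-numbered 5A entries that passed the filter. Pairs lay on 4D (TraesCS4D03G0554800.1 and TraesCS4D03G0555100.1) and 5D (TraesCS5D03G0056500.1 and TraesCS5D03G0057200.1), and 7 genes stood alone. The nearest entry that passed the filter on either side of each stretch had an r between −0.48 and 0.63, below the threshold in every case. Entries with the same numbers as the reference on the related chromosomes did not follow it: r lay between −0.51 and 0.12 for 7 entries of 1B and between −0.37 and 0.40 for 5 entries of 1D.

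**Figure D1:**
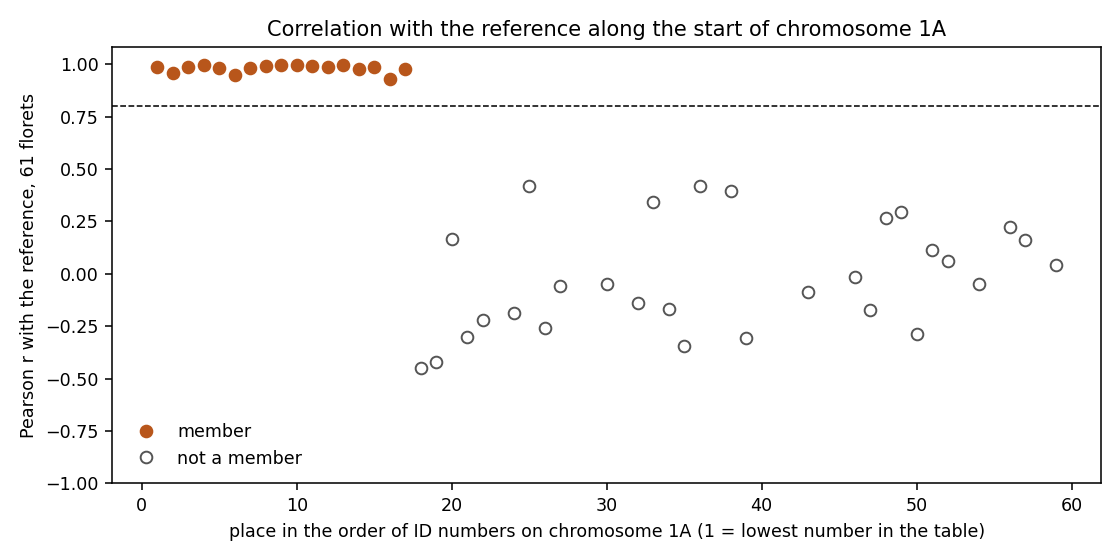
Pearson r with the reference over 61 florets (y axis) against the place of each entry in the order of identifier numbers on chromosome 1A (x axis). Filled points are the 17 genes of the set, open points are other entries that passed the filter, and the dashed line is r = 0.8. The first 17 entries lie between 0.929 and 0.997 and the 18th at −0.45.

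None of the 53798 gene identifiers matched any of the 155467 entries of the RefSeq gene table used here (assembly IWGSC CS RefSeq v2.1), so the genes are given by identifier and without names. In that table the first 24 entries of chromosome 1A, and 94 of the first 100, are ribosomal RNA genes. It lists 197 ribosomal RNA genes on 1A, 474 on 1B, 293 on 5D and 854 on 5A. It also lists 461 on 5B and 224 on 1D, which hold none of the 41 genes. On 4A, 4D and 3B, which hold 4, 2 and 2 of the 41 genes, it lists 6, 4 and 1. On 2D, which holds 1 of the 41, it lists 0. Of all 6486 ribosomal RNA genes in that table, 3904 are on unplaced sequence. Whether any of the 41 genes overlaps such a gene, or shares reads with a near-identical copy, was not tested.

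Within the set, r with the reference lay between 0.81 and 1.00 with a median of 0.98, and 30 of the 41 genes exceeded 0.95. The gene with the highest r was not on chromosome 1A but was TraesCS5D03G0057200.1 (0.998), followed by TraesCS1A03G0001500.1 (0.997), TraesCS1A03G0000800.1 (0.996), TraesCS1A03G0002200.1 (0.995) and TraesCS1A03G0001700.1 (0.994). The highest on the other chromosomes were TraesCS1B03G0225900.1 (0.994), TraesCS5A03G1305200.1 (0.994), TraesCS4A03G0645300.1 (0.986), TraesCS4D03G0555100.1 (0.984), TraesCS3B03G0775600.1 (0.905) and TraesCS2D03G1260100.1 (0.824). Just inside the threshold lay TraesCS1B03G1112800.1 (0.812) and TraesCS2D03G1260100.1, and just outside it TraesCS1D03G0339900.1 (0.772) and TraesCS1D03G0462000.1 (0.770). Only 9 of the 40613 entries lay between 0.7 and 0.8, against 37 above 0.9, and the lowest r of any entry was −0.65. No entry therefore ran as strongly against the reference as the 41 ran with it.

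Between the 41 genes themselves, the 820 pairwise correlations across the florets had a median of 0.94 and a lowest value of 0.67. A single axis held 94.1% of their floret variance. After the mean of each of the 16 groups had been subtracted, r with the reference still had a median of 0.87, ranged between 0.46 and 0.98, and exceeded 0.8 in 27 genes. These correlations come from the floret values that chose the genes, share their libraries and their depth, and use a reference that holds 13 of the genes, so they describe the set and support nothing further.

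Levels differed widely between the genes. Over all florets the highest mean normalized counts were those of TraesCS5D03G0057200.1 (1390), TraesCS1A03G0001500.1 (827), TraesCS1A03G0002200.1 (362), TraesCS5A03G1305200.1 (357) and TraesCS1A03G0000800.1 (273). The lowest was 5.41, for TraesCS1A03G0002900.1, and the median gene stood at 55.7. Normalized counts are not corrected for gene length, so these values do not order the genes by transcript number. The 41 genes together took between 0.00230% and 0.139% of a floret library's reads.

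The mean of the 41 genes on the log2(normalized count + 1) scale, called the set level below, fell into a high and a low range among floret groups. In the high range stood 7 groups, those with library numbers 10 to 16. They were, from the top, EBR 22 °C 8 h (7.06 ± 0.50, SD, n = 3), EBR 29 °C 0 h (6.93 ± 0.53, n = 4), DMSO 29 °C 16 h (6.91 ± 0.57, n = 4), EBR 29 °C 24 h (6.83 ± 0.18, n = 4), DMSO 22 °C 8 h (6.82 ± 0.62, n = 4), DMSO 22 °C 16 h (6.55 ± 1.27, n = 4) and EBR 22 °C 0 h (6.16 ± 0.76, n = 4). Neighbours in this order differed by less than their SDs. The next group was DMSO 29 °C 8 h at 4.42 ± 1.34 (n = 4), and the other 8 groups lay between 2.71 (EBR 29 °C 16 h) and 3.43 (EBR 22 °C 16 h). Of the floret variance of the set level, 89.1% lay between the 16 groups.

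**Figure D2:**
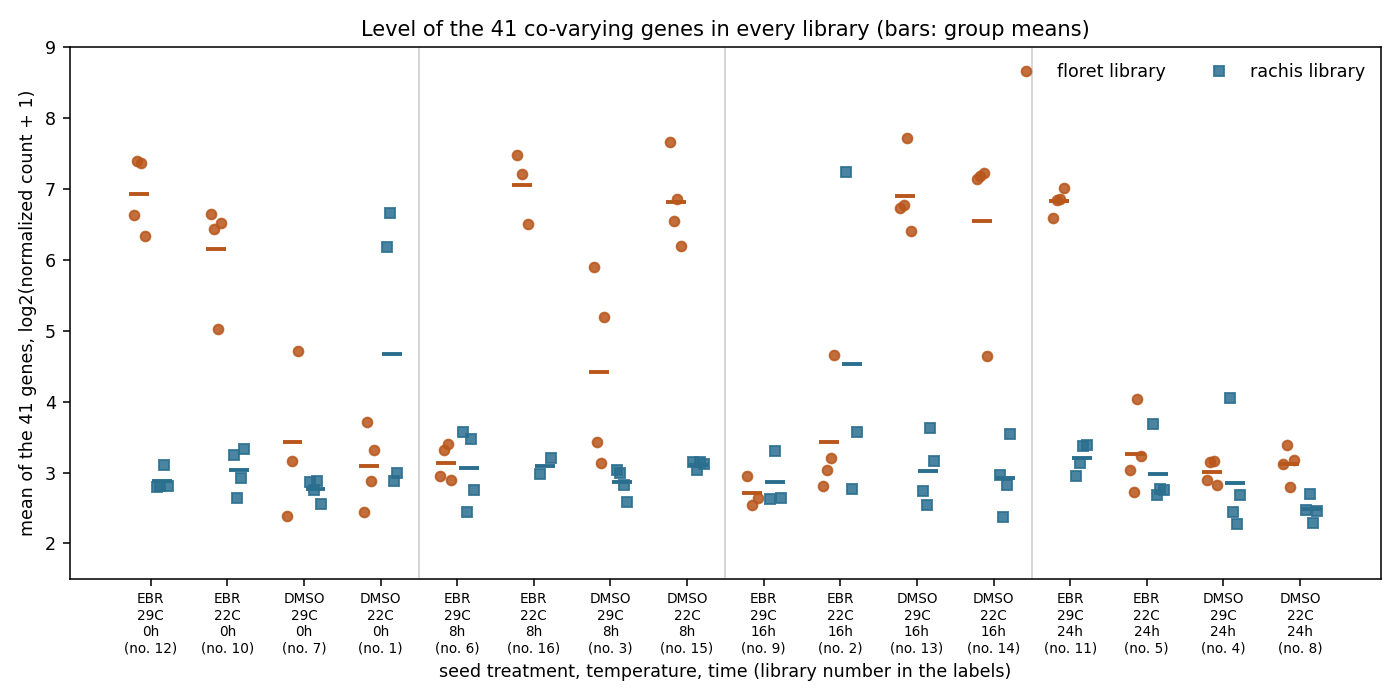
Set level, the mean of the 41 genes as log2(normalized count + 1) (y axis), in each floret library (circles) and rachis library (squares) of the 16 groups (x axis, with the library number of the labels); bars are group means. Florets of library numbers 10 to 16 lie between 4.65 and 7.72, those of numbers 1 to 9 between 2.38 and 5.90, and all but 3 rachis libraries lie below 4.1.

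Before the move, the set level stood at 6.63, 7.40, 7.37 and 6.34 in EBR 29 °C florets and at 6.65, 6.44, 5.02 and 6.52 in EBR 22 °C florets. In DMSO 29 °C florets it stood at 2.38, 3.17 and 4.72, and in DMSO 22 °C florets at 2.45, 3.71, 2.88 and 3.32. By label, the 8 EBR florets at 0 h (5.02 to 7.40) lay above the 7 DMSO florets (2.38 to 4.72), and without the 3 heads the 5 remaining DMSO florets lay between 2.88 and 4.72. This separation depends on the label of DMSO 22 °C replicate 1: its library labelled rachis, which lay on the floret side of its partner, stood at 6.19, above EBR 22 °C replicate 3. At 8 h the florets of the 2 temperatures lay apart: EBR 29 °C florets had 2.95, 3.32, 3.40 and 2.90, against 7.48, 7.21 and 6.50 in EBR 22 °C florets. DMSO 29 °C florets had 5.90, 3.43, 3.14 and 5.20, against 7.66, 6.55, 6.87 and 6.20 in DMSO 22 °C florets. Heated florets lay below unheated ones of the same seed treatment in both cases. At this time the 29 °C groups carry library numbers 3 and 6 and the 22 °C groups 15 and 16. Temperature and library number therefore cannot be told apart here.

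At 16 h the order of the seed treatments was the opposite of that at 0 h. EBR 29 °C florets had 2.95, 2.54 and 2.64, against 6.73, 6.77, 7.72 and 6.41 in DMSO 29 °C florets. EBR 22 °C florets had 2.81, 3.04, 3.20 and 4.66, against 7.15, 7.19, 7.23 and 4.65 in DMSO 22 °C florets, so at 22 °C the groups met at their edges. At 24 h EBR 29 °C florets stood apart, with 6.59, 6.84, 6.86 and 7.02. The other groups at that time lay between 2.72 and 4.03, with EBR 22 °C at 3.25 ± 0.56, DMSO 29 °C at 3.01 ± 0.18 and DMSO 22 °C at 3.12 ± 0.24 (SD, n = 4 each). High florets were thus found with both seed treatments, at both temperatures and at all 4 times, and no single factor of the design separated them from the low ones.

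The library number did separate most of them. In the 27 florets with numbers 10 to 16 the set level had a median of 6.77 and lay between 4.65 and 7.72, and in the 34 florets with numbers 1 to 9 it had a median of 3.14 and lay between 2.38 and 5.90. The line between 9 and 10 was drawn after the values had been seen. The labels do not say what the number stands for, and since each belongs to 1 combination of seed, temperature and time, effects of the number and of the condition cannot be told apart. Median depth was 18187998 reads for numbers 10 to 16 and 16637020 reads for numbers 1 to 9, and the part of depth in the difference was not tested. In the rachis the same numbers did not separate: the median set level was 3.08 for numbers 10 to 16 (26 libraries) and 2.77 for numbers 1 to 9 (34 libraries).

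TraesCS5D03G0057200.1, the most abundant of the genes, shows the range for a single gene. Its normalized count at 0 h was 2729, 4035, 3612 and 1720 in EBR 29 °C florets and 2689, 2134, 657 and 2100.4 in EBR 22 °C florets. It was 102, 147 and 447 in DMSO 29 °C florets and 69.1, 228, 141 and 168 in DMSO 22 °C florets. At 24 h it was 2334, 2636, 2427 and 2699.5 in EBR 29 °C florets, against 111, 158, 165 and 131 in DMSO 29 °C florets. By label, EBR and DMSO florets do not overlap at 0 h, nor do the 29 °C florets at 24 h. At 24 h the EBR 22 °C florets had a low set level (3.25), like both DMSO groups. At 0 h this again depends on the label of DMSO 22 °C replicate 1, whose library labelled rachis had 1254, above the lowest EBR floret. TraesCS1A03G0001500.1 had at 24 h 1279, 1946, 1363 and 1626 in EBR 29 °C florets, against 88.0, 101, 78.5 and 49.6 in DMSO 29 °C florets. It had at 16 h 79.9, 47.3 and 70.8 in EBR 29 °C florets, against 1584, 1288, 3377 and 1369 in DMSO 29 °C florets. Both genes were chosen for their likeness to the same floret reference, so their likeness to each other here is no separate result.

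**Figure D3:**
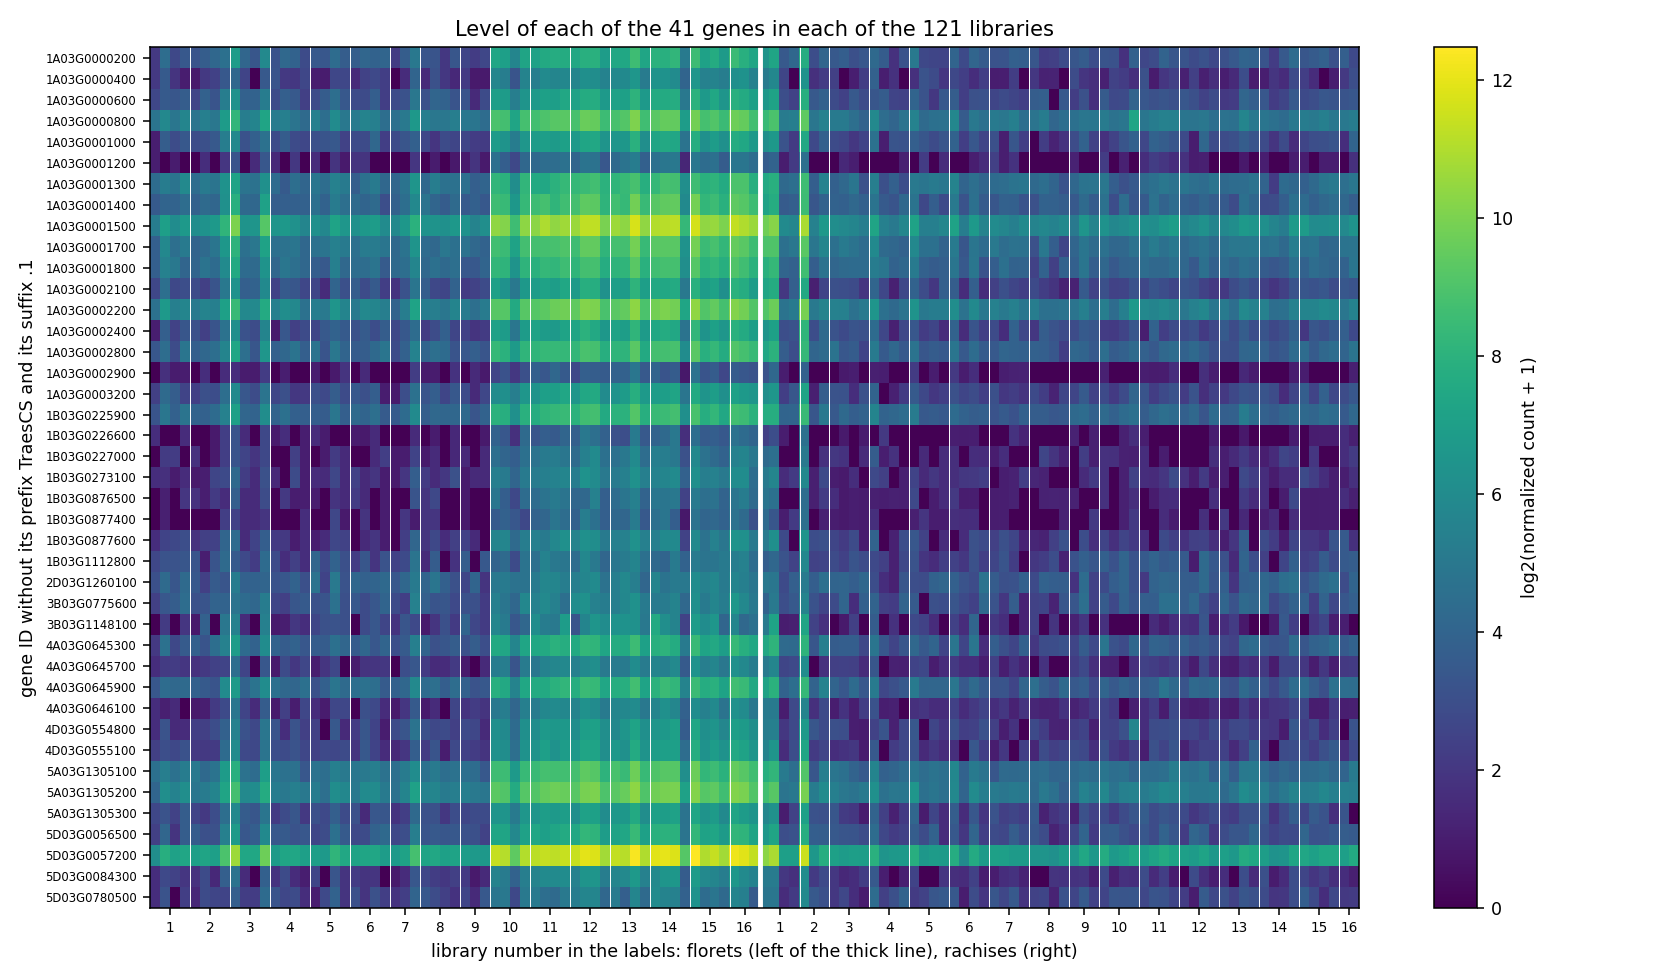
Level of each of the 41 genes (rows, by identifier number within a chromosome) in each library (columns, by tissue and library number), as log2(normalized count + 1). Florets of numbers 10 to 16 form a bright block across nearly all rows, and 3 rachis libraries, of numbers 1 and 2, are as bright.

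The genes differed in how far apart the florets of the 2 ranges of numbers were. The mean log2 level in numbers 10 to 16 exceeded that in numbers 1 to 9 by 1.54 to 4.25 with a median of 3.62. The widest distance was that of TraesCS1A03G0001400.1 (4.25). The narrowest were those of TraesCS2D03G1260100.1 (1.54), TraesCS3B03G0775600.1 (1.96), TraesCS1B03G1112800.1 (1.97), TraesCS5D03G0780500.1 (2.35) and TraesCS1A03G0002900.1 (2.59). The first 4 of these 5 were among the genes that stood alone. TraesCS2D03G1260100.1 had a median of 38.9 normalized counts in numbers 10 to 16 and 13.5 in numbers 1 to 9, and TraesCS1A03G0001400.1 had 392 and 16.0. For none of the 41 genes did the lowest library of numbers 10 to 16 exceed the highest of numbers 1 to 9.

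Single libraries also departed from their group. In DMSO 22 °C 16 h florets, replicate 4 stood at 4.65 while the others lay between 7.15 and 7.23. In EBR 22 °C 0 h florets, replicate 3 stood at 5.02 while the others lay between 6.44 and 6.65. In DMSO 29 °C 8 h florets, replicates 1 and 4 (5.90 and 5.20) lay well above replicates 2 and 3 (3.43 and 3.14). TraesCS5D03G0057200.1 followed the set level in these, with 586 in replicate 4 of DMSO 22 °C 16 h florets, against 3863, 4122 and 3648 in the other replicates.

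In the rachis the set level lay between 2.27 and 7.24 with a median of 2.90, and 3 libraries stood apart. Rachis replicates 1 and 2 of DMSO 22 °C at 0 h had 6.19 and 6.66, and rachis replicate 1 of EBR 22 °C at 16 h had 7.24. The next highest was 4.05, rachis replicate 1 of DMSO 29 °C at 24 h. The florets of these 3 heads were low, at 2.45, 3.71 and 2.81. The library labelled rachis, DMSO 22 °C 0 h replicate 1, belongs to 1 of the 3 heads whose tissue profiles lay on the other side. The other 2 rachis libraries do not, but lay nearer the floret side of the tissue axis than the median rachis position, −0.46. With negative values on the rachis side of the axis middle, replicate 2 of DMSO 22 °C 0 h stood at −0.004. Replicate 1 of EBR 22 °C 16 h stood at −0.24, and all rachis libraries lay between −1.66 and 0.52. Other rachis libraries further to the floret side had low set levels, such as DMSO 22 °C 8 h replicate 4 (position 0.447, set level 3.12). EBR 22 °C 8 h replicates 2 and 3 were also low (positions 0.101 and 0.120, set levels 2.97 and 3.21). The high DMSO 22 °C 0 h replicate 1 stood at 0.251. Whether the 3 high rachis libraries hold floret tissue was not tested. TraesCS5D03G0057200.1 had 1254, 1893 and 2806 normalized counts in the 3 rachis libraries and between 60.8 and 238 in the other rachis libraries.

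Floret and rachis of the same head, as matched by group and replicate number, did not share the set level. The floret was higher than the rachis in 48 of 59 heads. It was higher in 26 of 26 heads with library numbers 10 to 16, with a median difference of 3.72 (log2), and in 22 of 33 heads with numbers 1 to 9, with a median difference of 0.31. Across the heads, Pearson r between the tissues was −0.13 over all 59, −0.11 over the 26 and −0.12 over the 33. In each of the 3 heads whose tissue profiles lay on the other side the library labelled floret was the lower one. Without them the floret was higher in 48 of 56 heads, among them 22 of 30 with numbers 1 to 9 (median difference 0.32), and r was −0.07 over the 56 and −0.04 over the 30. By label, a high floret was therefore found beside a lower rachis in every head of numbers 10 to 16. A high library labelled rachis stood beside a lower one labelled floret in 3 heads of numbers 1 and 2. Of these, DMSO 22 °C 0 h replicate 1 is also among the 3 heads whose tissue profiles lay on the other side.

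**Figure D4:**
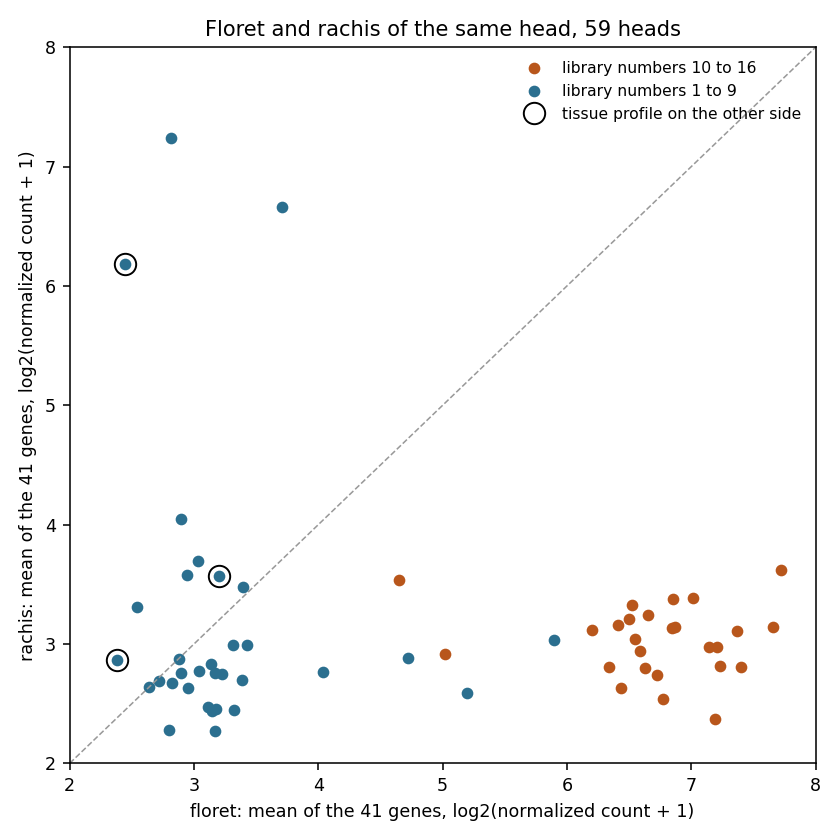
Set level in the rachis (y axis) against the floret (x axis) of the same head, both as log2(normalized count + 1), for 59 heads. The dashed line marks equal levels and rings mark the 3 heads whose tissue profiles lay on the other side. Heads of numbers 10 to 16 spread to the right below the line, and 3 heads of numbers 1 and 2 stand at the upper left with rachis levels between 6.19 and 7.24.

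The genes also moved together in the rachis, whose values entered the filter on low values but not the correlation that chose them. With the reference computed from the same 13 entries in the 60 rachis libraries, 24 of the 40613 entries had an r above 0.8. All 24 were among the 41 genes, 13 of them outside the reference entries. The median r of the 41 genes was 0.84, with a range between 0.43 and 0.98, and the median over all entries was −0.05. The 41 include the 13 entries that make up the reference, and for the 28 other genes the median was 0.79. The highest values were those of TraesCS5D03G0057200.1 (0.978), TraesCS1A03G0001500.1 (0.961) and TraesCS5A03G1305200.1 (0.961). Much of this rests on the 3 high rachis libraries. Without them 4 entries exceeded 0.8, again all members: TraesCS5D03G0057200.1 (0.883), TraesCS5A03G1305200.1 (0.838), TraesCS1A03G0001500.1 (0.827) and TraesCS1A03G0002200.1 (0.823). At r above 0.5 without these libraries there were 23 of the 41 genes and 98 other entries. The tissues are not independent, since the same heads gave both.

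The share of each gene in the set's summed normalized count was compared between florets of numbers 10 to 16, florets of numbers 1 to 9, the 3 high rachis libraries and the other rachis libraries. For 28 of the 41 genes the highest of the 4 median shares was under 1.5 times the lowest. For 4 genes it was 1.5 to 2 times, for 6 it was over 2 times, and 3 genes had a median share of 0 in at least 1 of the sets. These limits were chosen after the values had been seen. Both floret sets hold the values that chose the genes, so like shares between them are no separate result. TraesCS5D03G0057200.1 made up 22.3% to 26.7% of the set's summed normalized count in florets of numbers 10 to 16 and 18.7% to 26.8% in florets of numbers 1 to 9. It made up 18.9% to 20.6% in the 3 high rachis libraries and 18.2% to 27.6% in the other rachis libraries. TraesCS5A03G1305200.1 had medians of 6.22%, 6.42%, 6.43% and 6.25% in the same 4 sets of libraries. TraesCS1A03G0001500.1 made up 12.7% to 17.3%, 10.2% to 16.7%, 12.4% to 13.99% and 7.67% to 16.0% in them. The 6 genes over 2 times were TraesCS2D03G1260100.1, TraesCS1B03G1112800.1, TraesCS3B03G0775600.1, TraesCS3B03G1148100.1, TraesCS5D03G0780500.1 and TraesCS1A03G0002100.1. TraesCS2D03G1260100.1 made up a median of 0.331% in florets of numbers 10 to 16, 1.76% in florets of numbers 1 to 9, 0.311% in the 3 high rachis libraries and 2.15% in the other rachis libraries.

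Contrasts of seed treatment or temperature at 1 time, chosen where floret set levels lay apart, were then tested in the rachis; differences between times were not tested. In the rachis all 41 genes entered a fit of 40612 entries (limma, two-sided, Benjamini-Hochberg adjustment over all entries, called at an adjusted p below 0.05). At 0 h, over both pots, the median difference of the 41 genes between EBR and DMSO was 3.43 in florets and −0.80 in rachises (log2). The rachis set level lay between 2.63 and 3.33 in 8 EBR libraries and between 2.56 and 6.66 in 8 DMSO libraries, of which 2 are the high libraries. None of the 41 genes was called in the rachis, where 0.0172% of all entries were called, and 11 had an unadjusted p below 0.05. By edgeR none was called either, and 23 had an unadjusted p below 0.05. Without the 3 high libraries the rachis median was 0.10, and without the 3 heads whose tissue profiles lay on the other side it was −0.52, with a floret median of 3.07. Leaving out single replicate numbers gave rachis medians between −1.16 and −0.38.

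At 22 °C and 16 h the median difference between EBR and DMSO was −3.31 in florets and 1.75 in rachises. The rachis set level was 7.24, 2.77 and 3.57 in EBR libraries, against 2.97, 2.37, 2.82 and 3.54 in DMSO libraries, and the groups overlapped. All 41 genes had a positive rachis difference, yet none was called, as was no entry at all (0%); 23 of the 41 had an unadjusted p below 0.05, and by edgeR 37 did with none called. Without the 3 high libraries the median rachis difference was 0.30, and without the 3 heads it was 2.19, with a floret median of −3.13. It was 0.37 without replicate 1 and up to 2.56 without replicate 2. For TraesCS4A03G0645900.1 the rachis difference was 2.44 (SE 0.681, adjusted p = 0.647 by limma), with 318, 14.7 and 45.5 normalized counts in EBR libraries, against 9.40, 5.59, 10.2 and 20.3 in DMSO libraries.

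At 29 °C and 24 h the median difference between EBR and DMSO was 3.96 in florets and 0.38 in rachises, with a median over all entries of −0.11 in florets and −0.12 in rachises. In the rachis 2 of the 41 genes were called, both higher with EBR, against 59.4% of all entries called and 26.4% called higher. TraesCS2D03G1260100.1 had 3.17, 14.9, 17.6 and 16.4 normalized counts in EBR rachises, against 6.77, 2.09, 1.20 and 8.98 in DMSO rachises. Its difference was 1.34 (SE 0.532, adjusted p = 0.0279 by limma). TraesCS1A03G0001200.1 had 2.12, 3.73, 2.93 and 2.06 normalized counts in EBR rachises, against 0, 0, 0 and 1.12 in DMSO rachises, a difference of 1.60 (SE 0.675, adjusted p = 0.0387 by limma). The EBR and DMSO libraries overlapped for TraesCS2D03G1260100.1. They did not for TraesCS1A03G0001200.1, whose values amount to a few reads per library. The call rate of the 41 genes lay far below that of all entries. The median of their rachis means was 12.6 normalized counts, and they were not compared with entries of like level. The part of low counts in the call rate was not tested. With TMM rescaling, which set the median of all rachis entries at 0.01, the median of the 41 genes was 0.50 and 3 were called. Without single replicate numbers the rachis median lay between 0.09 (without replicate 3) and 0.85 (without replicate 1), and leaving out replicate 2 or replicate 3 ended both calls. The call of TraesCS1A03G0001200.1 was also lost with a pseudocount of 5 (adjusted p = 0.117 by limma) and by edgeR (adjusted p = 0.0711). That of TraesCS2D03G1260100.1 was also lost when only the compared groups were fitted (adjusted p = 0.0962 by limma). Over all alternatives their adjusted p-values lay between 0.0086 and 0.151 and between 0.00329 and 0.324, and edgeR called 1 of the 41, against 59% of all entries.

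The remaining contrasts gave no rachis call among the 41 genes. For EBR minus DMSO at 29 °C and 16 h the median difference was −4.43 in florets and −0.23 in rachises, with 0.00739% of all entries called and 0 of the 41 genes at an unadjusted p below 0.05 by limma or edgeR. Its rachis median lay between −0.62 (without replicate 2) and 0.07 (without replicate 3), so its sign rests on 1 replicate number. For 29 °C minus 22 °C at 8 h it was −2.44 in florets and −0.26 in rachises with DMSO seed (1.83% of all entries called). With EBR seed at 8 h it was −4.15 and −0.25 (23.2% called). Neither contrast had a member at an unadjusted p below 0.05 by limma or edgeR. For 29 °C minus 22 °C at 24 h with EBR seed it was 3.81 in florets and 0.22 in rachises (2.36% called), with 2 members at an unadjusted p below 0.05 by limma and 2 by edgeR. TraesCS5D03G0057200.1 had floret differences between 2.61 and 4.67 in size over the 7 contrasts. Its rachis differences were 0.39 or less in size apart from those at 0 h and at 22 °C and 16 h. Several of these contrasts share libraries, and whether the floret and rachis differences differ was not tested. Without single replicate numbers the rachis medians of the heat contrasts kept their sign, between −0.38 and −0.17 with DMSO seed at 8 h, −0.31 and −0.10 with EBR seed at 8 h, and 0.04 and 0.53 with EBR seed at 24 h.

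**Figure D5:**
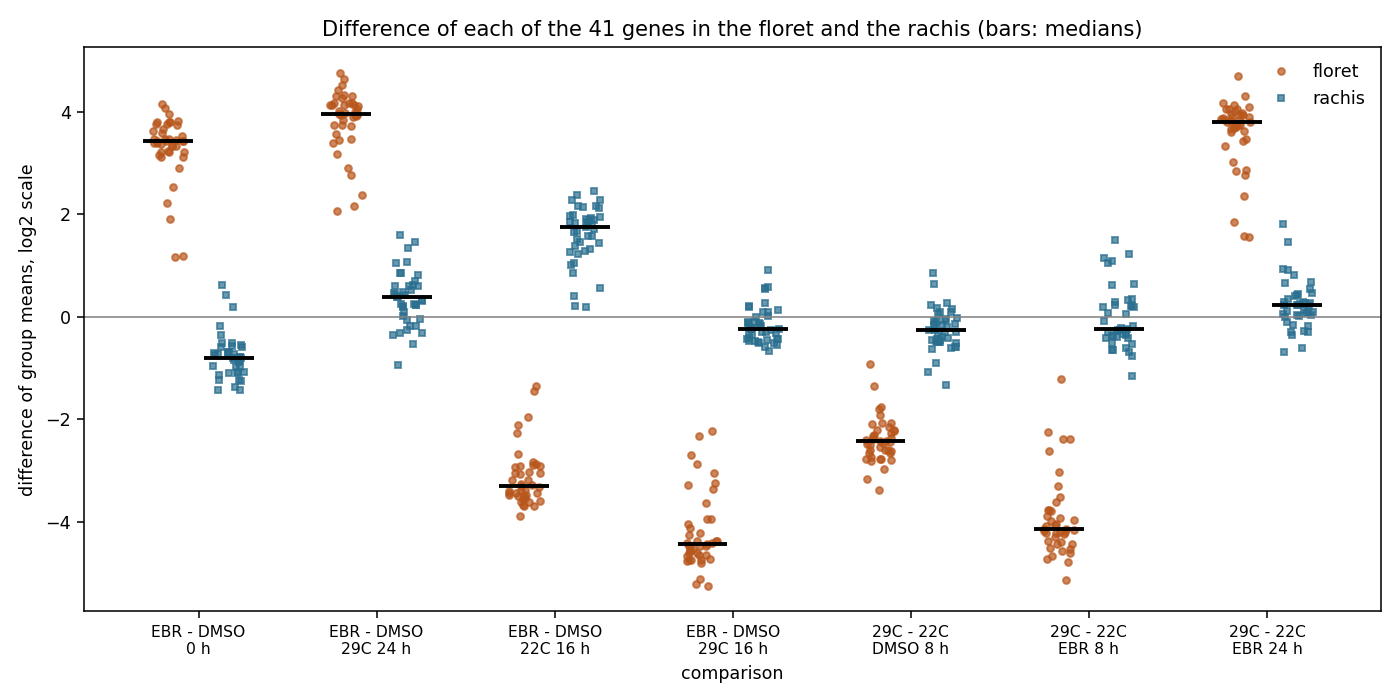
Difference of group means (y axis, log2 scale) of each of the 41 genes in florets (circles) and rachises (squares) for 7 contrasts (x axis); bars are medians. Floret medians lie between −4.43 and 3.96, and rachis medians lie between −0.80 and 1.75.

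Over all 16 rachis groups, 8 of the 41 genes differed between groups (limma's F test, adjusted over all entries), against 69.6% of all entries. They were TraesCS1A03G0000800.1, TraesCS1A03G0001300.1, TraesCS1A03G0001700.1, TraesCS1B03G0225900.1, TraesCS1B03G0273100.1, TraesCS4A03G0645300.1, TraesCS4A03G0645700.1 and TraesCS4A03G0645900.1, with adjusted p-values between 0.00756 and 0.0468 by limma. Of the 4 genes of the 4A stretch, 3 were among them. TraesCS1A03G0001700.1, with the lowest adjusted p, had 613, 28.3 and 50.3 normalized counts in EBR 22 °C 16 h rachises and 502, 527, 23.0 and 29.5 in DMSO 22 °C 0 h rachises. In the rachis libraries of the other 14 groups it lay between 5.17 and 58.7. Without the 3 high libraries 1 of the 41 was called (68.5% of all entries), and likewise 1 without the 3 heads whose tissue profiles lay on the other side (69.4%). Leaving out single replicate numbers gave 1 to 5 calls, with 1 when replicate 1 was left out. By edgeR on the recovered reads, with all libraries, 38 of the 41 were called, against 69.9% of all entries.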

How the data were processed

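Per the submitters' processing notes, FastQC, MultiQC, Trimmomatic 0.36, STAR, featureCounts and DESeq2 were used, with no roles named; the aligner settings, annotation and build are not given in the sources used here. As deposited by the authors, the values are a signal, normalized counts per entry and library, in 1 table. In every library 100% of the values were whole reads within 0.01 after a single factor was removed, so read totals could be recovered. Of 55578 entries as read here, covering chromosomes 1 to 4 and part of 5, 1 incomplete entry was left out. A sample labelled as removed (rachis, EBR, 22 °C, 8 h, replicate 1) has no column, so 61 floret and 60 rachis libraries were used.

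Correlations used log2(normalized count + 1), a scale that understates changes of low genes. Rachis tests used limma 3.58.1 in R 4.3.3 with a variance trend, 1 mean per group and no covariates; 1 entry without variance was dropped. Differences are between group means on the log2 scale, with a standard error (SE). The limma step was tested on simulated data. Libraries of a group were compared for sampling noise: in 172 pairs the lowest chi-square per entry was 2.82, so none was counted as a duplicate. The labels' protocols call the replicates biological; whether the plants stood in separate pots is not stated, so p-values measure the spread between these heads.

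Alternatives were pseudocounts of 0.5 and 5, no or another filter, rescaling by TMM factors, a fit of the compared groups alone, the quasi-likelihood test of edgeR 4.0.16 on recovered reads, leaving out each replicate number, a replicate block, leaving out the 3 high rachis libraries and other membership rules. Leaving out the 3 heads was chosen after seeing the data. The members and lists were chosen with earlier results of these data known. Named were the genes with the highest r, the highest levels, those nearest the threshold, the highest r per chromosome, the called genes and the members of counts of 5 or fewer; TraesCS1A03G0001400.1, the genes of narrowest distance and those traced through single libraries were chosen after their values were seen.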

Additional observations from a re-analysis of the deposited data

Results flagged for a closer look

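In 26 groups of 4 libraries, the set level was searched for a library whose gap to the nearest other exceeded Dixon's 95% critical value, which chance gives in about 1 of 20 groups. It picked out 4 libraries. In florets, whose values chose the genes, this is a description of the libraries only. In florets these were replicate 4 of DMSO 22 °C 16 h at 4.651, with the others between 7.146 and 7.23, and replicate 3 of EBR 22 °C 0 h at 5.019, with the others between 6.437 and 6.654. In rachises these were replicate 1 of EBR 22 °C 24 h at 3.691, with the others between 2.687 and 2.765, and replicate 3 of EBR 29 °C 0 h at 3.113, with the others between 2.8 and 2.805. The 3 high rachis libraries were not among them, since 2 lie in the same group and the third in a group of 3.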

How the results depend on the processing

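Membership moved little: 40 to 42 genes when each replicate number was left out, always 17 on chromosome 1A, and 41 by Spearman's rho, with a pseudocount of 5, by TMM values or with a reference without the entry tested. It was 42 without a filter or without the 3 heads, 50 at r above 0.7 and 37 at r above 0.9. A mean of at least 50 left 16 genes, 9 on 1A. A reference of window entries outside the set was not run, since all 13 are members. The median r within floret groups was 0.859 to 0.905 without single replicates. Genes with a rachis r above 0.8 numbered 15 to 30 without single replicates (15 without replicate 1) and 4 without the 3 high rachis libraries.

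In the rachis at 29 °C and 24 h, 0 to 3 genes were called for EBR without single replicates and 1 by edgeR. Over the 16 groups, 1 to 5 genes were called without single replicates, 5 without a filter on low values, 1 without the 3 high libraries, 1 without the 3 heads and 38 by edgeR. The other 6 contrasts gave 0 calls under every alternative run. With the replicate block, 10 genes were called over the 16 groups and 3 at 29 °C and 24 h; same-numbered rachis libraries had a mean residual correlation of 0.009 (423 pairs), so the numbers do not pair them. The cause of these changes was not tested. Depth limits the lowest genes: 32 to 41 of the 41 had a read in a rachis library.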
